A study of Mus musculus with 4 samples.

Results

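The genes described here are those of the cytosolic ribosomal proteins, chosen as every row of the expression tables whose symbol is Rpl, Rps or Rplp followed by a number and at most 1 letter a, l or x. The rule used names only and found 79 of 32285 genes. It takes in the tissue-restricted or duplicated paralogs Rpl3l, Rpl10l, Rpl39l and Rps27l, and by its wording it leaves out other ribosome genes such as Rpsa, Rack1 and the ubiquitin-like fusion Fau, which are treated apart below. The nuclei came from tumours of CT26, a murine colon carcinoma line of BALB/c origin, grown under the flank skin of BALB/c mice and taken on day 14. The injected cells had an intact Sun1 gene (Sun1_WT) or had lost it (Sun1_KO), and the number of tumours or clones behind each library is not given in these sources. The mice themselves were not edited, so myeloid, NK and T nuclei are host cells of the same Sun1 genotype in both groups. Sun1 encodes an inner nuclear membrane protein that ties the lamina to the cytoskeleton.

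Ribosomal proteins are made in near-equal numbers, carried into the nucleolus and built with ribosomal RNA into the small and the large ribosomal subunit. Their mRNAs are short, abundant and long-lived. Most begin with a C followed by a run of pyrimidines, the 5′ terminal oligopyrimidine (TOP) tract, through which mTOR and Larp1 set their translation and stability. In a preparation of nuclei, these mRNAs are read both from the nuclear pool and from whatever cytoplasm stays with the nucleus.

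Each genotype had 1 expression library and 1 accessibility library, read from the same nuclei, so genotype and library cannot be told apart and no test between genotypes was possible. Every interval below is an exact 95% interval for counting error only, and every ratio is Sun1_KO over Sun1_WT. The expression libraries held 53707675 (Sun1_WT) and 35471291 (Sun1_KO) unique molecular identifiers (UMIs, counted RNA molecules). Marker genes, none of them ribosomal, placed 2462 and 1418 nuclei in a tumour gate, 339 and 320 in a myeloid gate, 88 and 83 in an NK gate and 73 and 107 in a T gate. The tumour gate rested mostly on Hmga2, which gave 92.0% and 94.7% of its marker UMIs and was itself higher in Sun1_KO (2910 and 4470 CPM, counts per 1e6 counts of the gate). Sun1 in tumour-gated nuclei stood at 105 and 65.9 CPM (log2 ratio -0.67, -0.75 to -0.59). Which part of Sun1 was removed is not stated, so this lower level does not by itself check the knockout. Only 12 barcodes occurred in both libraries. Without them the ribosomal protein medians given below were -0.75 (tumour), -0.49 (myeloid), -0.61 (NK) and -0.35 (T), as with them. Mitochondrial genes, left out of the totals behind every CPM here, took a larger share of UMIs in Sun1_KO in each gate, 6.97% and 11.4% in tumour, 5.79% and 9.11% in myeloid, 3.68% and 8.84% in NK, and 4.19% and 9.48% in T nuclei.

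The RefSeq start-site table (GRCm38.p6, the mm10 assembly) had an entry for 59 of the 79 genes. A TOP tract, searched as a C at the listed first base followed by at least 4 pyrimidines on the gene's strand, stood at a listed start of 13 of these 59 genes (22%) and of 800 of 26966 other genes (2.97%). The ETS-factor string CCGGAAG, searched on both strands of 300 bases around the start, was in 24 of 59 (40.7%) against 9.86% of other genes. The YY1 string AAGATGGC was in 5 of 59 (8.47%) against 3.18%, and the ETS and YY1 strings can share letters. A listed start can lie some bases from the true cap, which would hide a tract. The starts of 4 genes from the low end and 4 from the high end of the tumour ratios are shown to let the first transcribed bases of both ends be compared. Each runs 5′ to 3′ over the 20 bases before the listed start and the first 10 from it, with the TOP tract in capitals where one begins at the start.
Rpl10, chrX:74270796-74270825, plus strand: ctatggttgttacagtggaagataggccgc
Rpl15, chr14:18270977-18271006, minus strand: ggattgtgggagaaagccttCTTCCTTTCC
Rps3, chr7:99483700-99483729, minus strand: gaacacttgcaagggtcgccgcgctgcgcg
Rps18, chr17:33955656-33955685, minus strand: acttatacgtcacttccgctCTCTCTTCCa
Rps27, chr3:90213639-90213668, minus strand: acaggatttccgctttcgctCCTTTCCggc
Rpl35, chr2:39005122-39005151, minus strand: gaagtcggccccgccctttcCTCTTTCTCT
Rps28, chr17:33824553-33824582, minus strand: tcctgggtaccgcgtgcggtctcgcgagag
Rpl38, chr11:114668560-114668589, plus strand: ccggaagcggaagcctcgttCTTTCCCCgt
Both ends held genes with and without a tract at the listed start. Rpl39 and Rps7 at the low end and Rpl41 at the high end, not shown, had no tract there, and Rpl29 had no entry. Among members measured in tumour nuclei, the 13 with a tract had a median log2 ratio of -0.70 (range -1.53 to 0.15) and the 44 without one had -0.80 (range -1.54 to -0.03). The 20 with no entry had -0.74.

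Ribosomal protein RNA made up a smaller share of the transcriptome in Sun1_KO in all 4 gates. In tumour nuclei the members together took 12.8% of the UMIs without mitochondrial genes in Sun1_WT (5584196 UMIs) and 7.88% in Sun1_KO (2075938 UMIs), 1.63-fold lower. The share was 8.01% and 5.91% in myeloid, 10.9% and 7.40% in NK, and 9.78% and 8.06% in T nuclei, which is 1.35-fold, 1.48-fold and 1.21-fold lower. The difference was spread over the nuclei. The median tumour nucleus had 12.4% in Sun1_WT, with 80% of nuclei between 7.69% and 18.4%, and 7.17% in Sun1_KO, with 80% between 4.21% and 12.1%. Nuclei with under 5% ribosomal protein UMIs were 32 of 2462 (1.3%) in Sun1_WT and 271 of 1418 (19.1%) in Sun1_KO. The distributions overlapped, and 302 Sun1_KO tumour nuclei (21.3%) still lay above 10%, against 1794 (72.9%) in Sun1_WT.

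**Figure D1:**
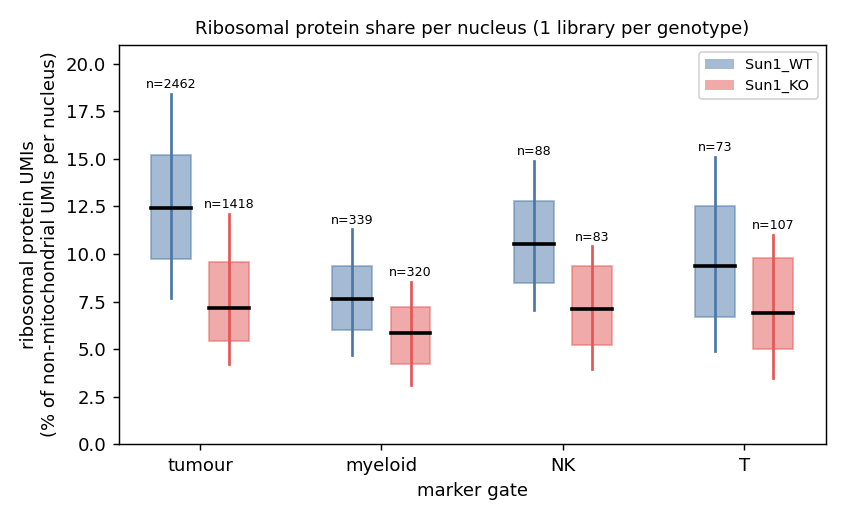
Share of ribosomal protein UMIs among non-mitochondrial UMIs per nucleus (y axis, percent) in the 4 marker gates (x axis), Sun1_WT in blue and Sun1_KO in red. Boxes span the middle quartiles, black lines are medians and whiskers run from the 10th to the 90th percentile of nuclei of 1 library, with medians of 12.4% and 7.17% in the tumour gate and lower medians in Sun1_KO in the other gates too.

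In tumour nuclei 77 of the 79 members had at least 100 UMIs over both libraries and were compared. Below 0 in log2 ratio, that is lower in Sun1_KO, were 75 of them, where 36.6% of all 13210 genes compared were. Past 1.5-fold lower were 51 (9.42% of all genes) and past 2-fold lower 14 (2.88%), while 0 were past 1.5-fold higher (13.7%). The median member had a log2 ratio of -0.75, with the middle quartiles at -0.96 and -0.51, against a median of 0.16 over all genes. Among the 95 other genes at or above the level that bounds the lowest decile of the members (641 CPM), the median was 0.07, and 14.7% were past 1.5-fold lower. The 47 large-subunit members had a median of -0.78 and the 30 small-subunit members -0.72. The 2 genes outside the comparison were Rpl10l, a testis-expressed retrogene, with 0 UMIs in both libraries, and Rpl3l, the muscle form of Rpl3, with 13 and 3.

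In Sun1_WT and Sun1_KO respectively, with UMIs, log2 ratio and interval in brackets, the lowest members stood as follows. Rpl10, which completes the large subunit late in its maturation, stood at 1320 and 455 CPM (57690 and 11980 UMIs, -1.54, -1.57 to -1.51). Rpl15, a core large-subunit protein, stood at 1170 and 405 CPM (50836 and 10671 UMIs, -1.53, -1.56 to -1.50). Rpl39, a small protein of the peptide exit tunnel, stood at 1760 and 655 CPM (76869 and 17265 UMIs, -1.43, -1.45 to -1.40). The intervals of Rpl10 and Rpl15 overlapped, and that of Rpl39 lay above both. Rps3, at the mRNA entry channel of the small subunit, stood at 1540 and 607 CPM (67036 and 16005 UMIs, -1.34, -1.36 to -1.32). Rps18, of the small-subunit head, stood at 1880 and 831 CPM (81972 and 21906 UMIs, -1.18, -1.20 to -1.16). Rps7, needed to process small-subunit RNA, stood at 1150 and 552 CPM (50346 and 14550 UMIs, -1.06, -1.09 to -1.04), level with Rps2 at -1.06. Between Rps7 and the median the members followed each other in small steps.

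At the other end, 6 members lay between -0.16 and 0.15. Rpl38, a small large-subunit protein known for its role in the translation of Hox mRNAs, stood at 1280 and 1430 CPM (56036 and 37641 UMIs, 0.15, 0.13 to 0.17). It was the only member whose interval lay above 0, although with TMM or median-ratio scaling its ratio was -0.01. Rpl29 was by far the least counted of the members compared, with 1428 and 932 UMIs (32.7 and 35.4 CPM), and its ratio of 0.11 (-0.01 to 0.23) could not be told from 0. Rps28, at the mRNA exit of the small subunit, stood at 1260 and 1240 CPM (55042 and 32658 UMIs, -0.03, -0.05 to -0.01). Rpl35, near the exit tunnel, stood at 589 and 556 CPM (25671 and 14648 UMIs, -0.08). Rpl41, a tiny basic peptide that bridges the subunits, stood at 2910 and 2660 CPM (127072 and 70201 UMIs, -0.13), and the zinc-finger protein Rps27 at 1160 and 1040 CPM (50636 and 27393 UMIs, -0.16). The makeup of the ribosomal protein pool therefore differed. Rpl38 went from 1.00% of all ribosomal protein UMIs in Sun1_WT to 1.81% in Sun1_KO, and Rpl10 from 1.03% to 0.577%. Many of these genes have near-identical processed copies in the genome, so the counts of single genes are uncertain where the authors' counting could split reads between copies.

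**Figure D2:**
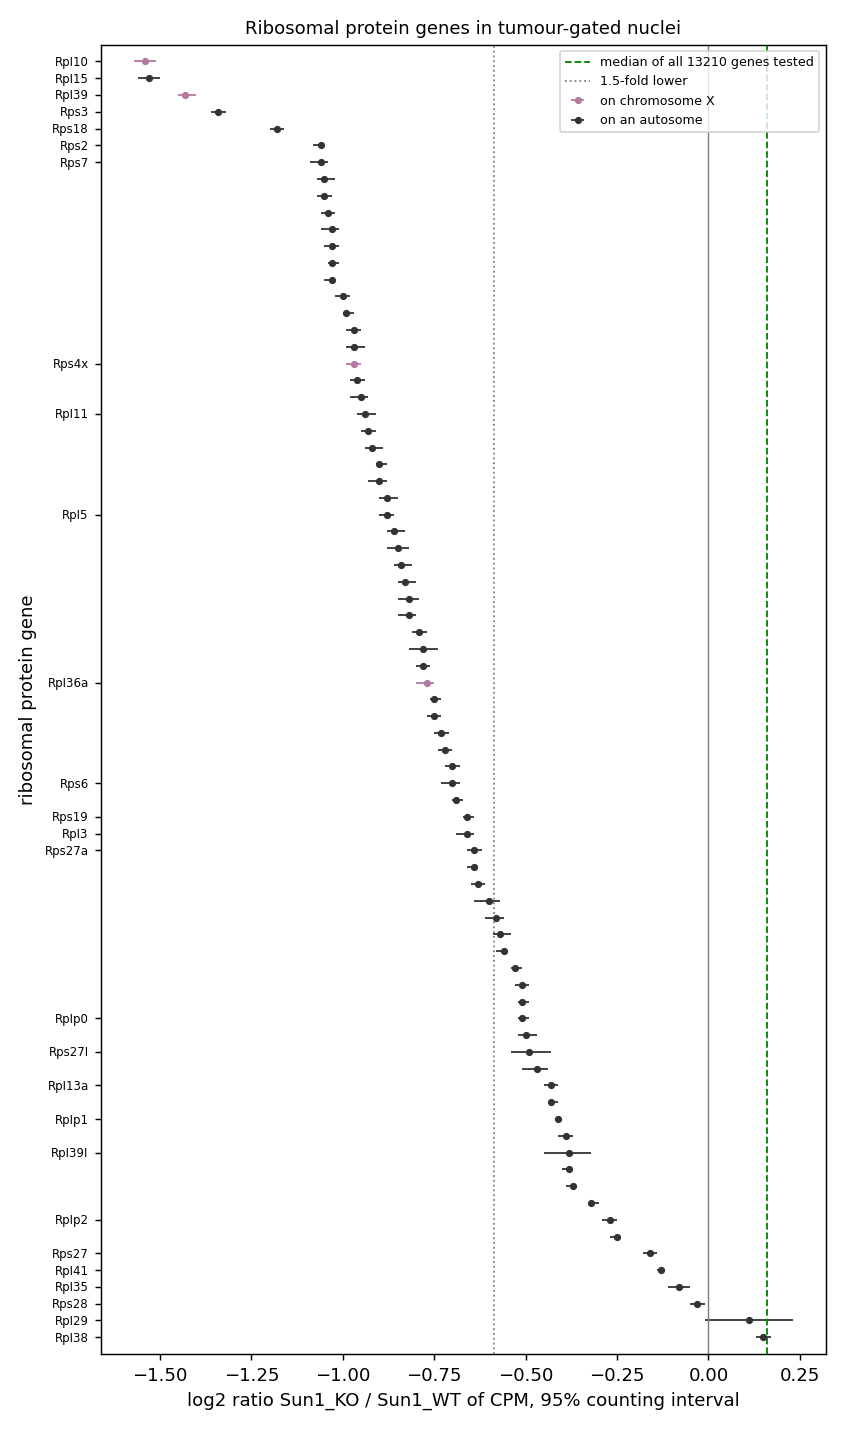
Log2 ratio of CPM, Sun1_KO over Sun1_WT (x axis), with 95% counting intervals for the 77 members compared in tumour-gated nuclei (y axis, from lowest to highest, with members described in the text labelled), those on chromosome X in purple. The solid line marks 0, the dotted line 1.5-fold lower and the dashed line the median of all 13210 genes (0.16), and 75 of 77 members lie to the left of 0.

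Members chosen for their roles were also read in tumour nuclei. The stalk proteins recruit elongation factors. Of these, Rplp0 stood at 2540 and 1790 CPM (-0.51), Rplp1 at 5020 and 3770 CPM (-0.41) and Rplp2 at 1590 and 1320 CPM (-0.27). Rpl5 and Rpl11, which carry the 5S RNA and bind Mdm2 when assembly is disturbed, were lower than the median member. Rpl5 stood at 1260 and 686 CPM (-0.88, -0.90 to -0.86) and Rpl11 at 1410 and 737 CPM (-0.94, -0.96 to -0.91). Rps6, the substrate of S6 kinase, stood at 1120 and 688 CPM (-0.70), and Rps27a, made as a fusion with ubiquitin, at 1700 and 1090 CPM (-0.64). Rps19, the gene most often mutated in Diamond-Blackfan anaemia, stood at 2300 and 1460 CPM (-0.66), and Rpl3, of the peptidyl transferase centre, at 920 and 582 CPM (-0.66). Rpl13a, which also takes part in interferon-driven translational silencing, was at 1380 and 1020 CPM (-0.43). The paralogs Rps27l, a p53 target, and Rpl39l, known from germ cells and tumours, were lowly expressed at 204 and 145 CPM (-0.49) and at 159 and 122 CPM (-0.38).

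In myeloid nuclei 76 members were compared, and 72 were below 0, against 41.0% of all 5952 genes. Past 1.5-fold lower were 30 of them (5.07% of all genes) and 0 were past 1.5-fold higher (5.41%), and the median was -0.49 against 0.08 over all genes. Rps3 stood at 964 and 449 CPM (-1.10, -1.23 to -0.98), Rpl10 at 898 and 429 CPM (-1.06, -1.20 to -0.93) and Rpl15 at 653 and 319 CPM (-1.03, -1.19 to -0.88). Those 3 were the only members at least 2-fold lower, against 1.09% of all genes. Rpl38 stood at 985 and 1240 CPM (0.34, 0.24 to 0.43). The intervals of Rps28 (848 and 905 CPM, 0.09, -0.01 to 0.20) and of Rplp2 (1010 and 1030 CPM, 0.02, -0.07 to 0.12) held 0. The same gate carried erythroid marker UMIs, all 4 haemoglobin genes detected in both libraries, at 197 CPM in Sun1_WT and 14.2 in Sun1_KO, and their part in the result was not tested.

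In NK nuclei 74 members were compared, 70 were below 0 (39.7% of all 1122 genes), 39 were past 1.5-fold lower (12.3%), 7 past 2-fold lower (3.65%) and 0 past 1.5-fold higher (11.6%). The median was -0.61 against 0.13. Rpl10 stood at 1510 and 545 CPM (491 and 113 UMIs, -1.47, -1.78 to -1.17) and Rps2, of the small-subunit decoding region, at 1780 and 738 CPM (577 and 153 UMIs, -1.26, -1.53 to -1.01). Rpl38 stood at 1280 and 1740 CPM (0.44, 0.24 to 0.65) and Rps27 at 930 and 1120 CPM (0.27, 0.02 to 0.53). NK receptor genes marked this gate, and B-cell and neutrophil markers summed to at most 19.3 CPM. Fibroblast markers were lower in Sun1_KO in this gate. All 5 were detected at a summed 437 CPM in Sun1_WT and 4 of 5, without Lum, at 91.7 CPM in Sun1_KO. The part of these markers in the result was not tested. T markers summed to 1220 and 1310 CPM, with 8 of 17 detected in Sun1_WT and 9 of 17 in Sun1_KO. Cd3d, Cd3g, Trbc1 and Trbc2 were detected in both libraries, while Cd3e and Trac were at 0 in both. Endothelial markers summed to 373 and 352 CPM.

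In T nuclei 74 members were compared. Of these, 59 were below 0 (44.0% of all 1456 genes), 14 past 1.5-fold lower (6.46%), 1 past 2-fold lower (1.65%) and 0 past 1.5-fold higher (8.59%), and the median was -0.35 against 0.06. Rpl10 stood at 1010 and 455 CPM (246 and 175 UMIs, -1.15, -1.43 to -0.86) and Rpl15 at 754 and 377 CPM (-1.0, -1.32 to -0.68). Rpl38 stood at 1350 and 1900 CPM (0.50, 0.31 to 0.69), while the interval of Rpl35 (389 and 494 CPM, 0.34, -0.02 to 0.72) held 0. Rplp0 (1500 CPM in both libraries) and Rpl13a (1300 CPM in both), which were lower in tumour nuclei, had ratios of 0.00 here. With each nucleus given equal weight the T median was -0.51, beside -0.49 in myeloid nuclei, and 28 members were at least 1.5-fold lower (8.66% of all genes). The Sun1_WT T nuclei held all 5 fibroblast markers at a summed 1530 CPM and the Sun1_KO T nuclei 4 of 5, without Pdgfra, at 93.7 CPM, and the part of this in the result was not tested.

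Over the 4 gates, 58 of the 74 members compared in each were below 0 in all of them, against 15.6% of the 925 genes compared in all 4, members included. At least 1.5-fold lower in all of them were 13 members, against 2.49% of these genes. Rpl10, Rpl15, Rps2, Rps3 and Rps7 were among these 13. Rpl38 was the 1 member above 0 in every gate, as were 30.4% of the genes. Rpl10, Rpl15 and Rps3 lay toward the low end in each.

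**Figure D3:**
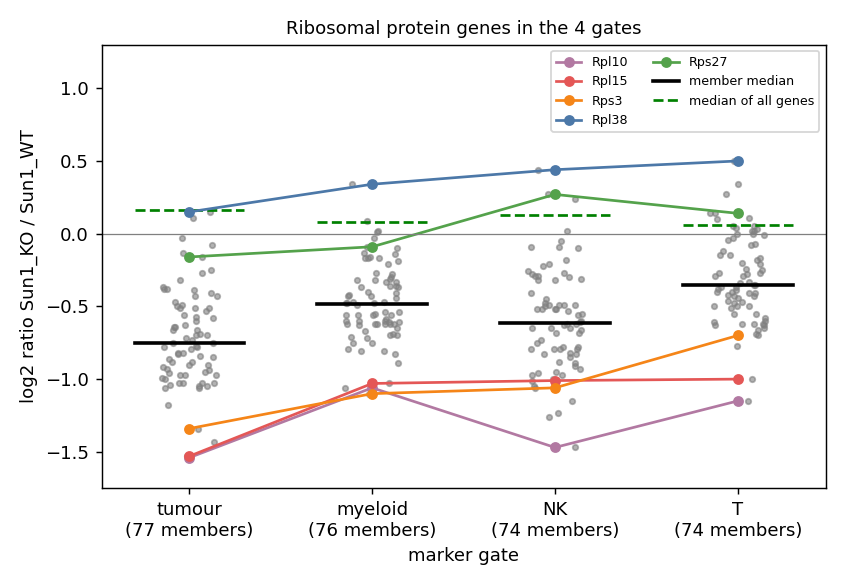
Log2 ratio Sun1_KO over Sun1_WT (y axis) of every member compared in each marker gate (x axis, with the number of members). Grey points are members, black bars their median, green dashed bars the median of all genes in that gate, and coloured lines follow 5 members, with Rpl38 above 0 and Rpl10, Rpl15 and Rps3 at or below -0.70 in all 4 gates.

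Because mitochondrial UMIs also differed, the ribosomal protein share was read within bins of the mitochondrial share. In each of the 6 bins of tumour nuclei the median Sun1_KO nucleus had the lower share, though the outer bins were thinly filled. The bin from 0 to 2.5% held 23 Sun1_KO nuclei, and that from 15 to 20% held 10 Sun1_WT nuclei. At 7.5 to 10% mitochondrial UMIs the medians were 13.1% (660 Sun1_WT nuclei) and 6.97% (299 Sun1_KO nuclei), and at 10 to 15% they were 14.6% (184 nuclei) and 7.44% (713 nuclei). The median over members was -0.82 in nuclei with 5 to 10% mitochondrial UMIs and -0.94 above 10%. Within a genotype, nuclei with a larger mitochondrial share tended to have a larger ribosomal protein share. Spearman's rho between the 2 shares was 0.25 over 2462 Sun1_WT and 0.13 over 1418 Sun1_KO tumour nuclei. Nuclei of 1 genotype share a library.

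The exception was the tumour nuclei with at most 5% mitochondrial UMIs, 521 in Sun1_WT and 61 in Sun1_KO. When their UMIs were summed, the share was 11.3% in Sun1_WT and 14.0% in Sun1_KO, and the median over members turned to 0.25, against -0.07 over all 9066 genes. Below 0 were 12 of 77 members (57.2% of all genes), and 0 were at least 1.5-fold lower (12.2%). The median nucleus pointed the other way, at 10.5% and 5.90%. With each nucleus given equal weight the median over members was -0.30 against -0.01 over all genes, with 64 of 77 below 0 (50.9% of all genes) and 14 at least 1.5-fold lower (13.6%). In the myeloid gate the Sun1_KO median was lower in every bin, with 1 Sun1_WT nucleus in the bin from 15 to 20%. The median over members was -0.73, -0.59 and -0.32 at up to 5%, 5 to 10% and above 10% mitochondrial UMIs.

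**Figure D4:**
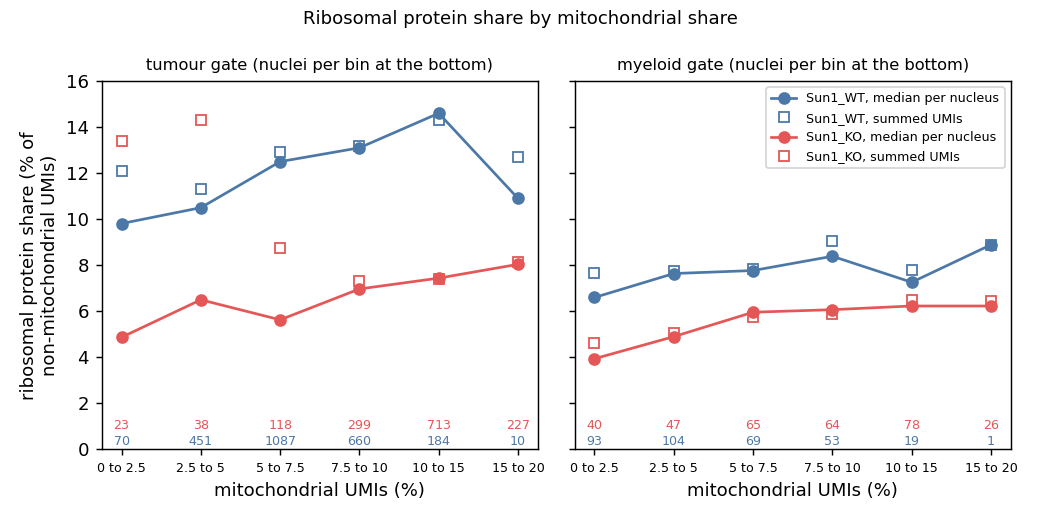
Ribosomal protein share of non-mitochondrial UMIs (y axis, percent) in bins of the mitochondrial share (x axis, percent) for the tumour gate (left) and the myeloid gate (right), Sun1_WT in blue and Sun1_KO in red, with nuclei per bin at the bottom. Filled circles are medians over nuclei and open squares summed UMIs, and the red circles lie below the blue ones in every bin while the red squares of the tumour gate lie above the blue ones in the lowest 2 bins.

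Other genes of the ribosome and of abundant cytoplasmic RNA were read from lists chosen with earlier results of these data known. In tumour nuclei 7 of 8 ribosome genes outside the naming rule were below 0 (36.6% of all genes). Their median was -0.60, and 4 were at least 1.5-fold lower (9.42% of all genes). Fau, a ubiquitin-like fusion with Rps30, stood at 1790 and 972 CPM (-0.88) and the scaffold Rack1 at 1440 and 875 CPM (-0.72), while Rpl7l1 was at 52.7 and 53.2 CPM (0.01). The 14 abundant cytoplasmic mRNAs that encode no ribosomal protein had the same median of -0.60. Of them, 12 of 14 were below 0 (36.6% of all genes) and 7 at least 1.5-fold lower (9.42%). Ferritin heavy chain, Fth1, stood at 949 and 328 CPM (-1.53) and Ubb at 552 and 232 CPM (-1.25), while Pfn1 was at 297 and 303 CPM (0.03) and Tmsb10 at 326 and 346 CPM (0.08). Elongation factor Eef1a1, which has a TOP mRNA, was at 3220 and 1920 CPM (-0.74).

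Nuclear-encoded genes of oxidative phosphorylation had a median of -0.49, with 75 of 83 below 0 (36.6% of all genes) and 33 at least 1.5-fold lower (9.42%). They ran from Ndufa1 (-1.48) and Ndufb11 (-1.27) to Ndufa3 (0.34) and Ndufaf5 (0.45). Mitochondrial ribosomal proteins had -0.43, with 70 of 78 below 0 and 21 at least 1.5-fold lower, from Mrps14 (-1.05) and Mrpl16 (-0.92) to Mrpl24 (0.31) and Mrpl10 (0.37). The 64 translation factors had -0.19, with 44 below 0, 13 at least 1.5-fold lower and 3 higher, from the cap-binding inhibitor Eif4ebp1 (301 and 118 CPM, -1.35) and Eef1g (-1.01) to Eif4b (0.65) and Eif4enif1 (0.68). Genes that build ribosomes or control their synthesis lay nearer to the median of all genes. The 30 ribosome biogenesis genes had a median of -0.03, with 15 below 0 (36.6% of all genes) and 1 at least 1.5-fold lower (9.42%). They ran from Nop14 (-0.68) and Rrs1 (-0.40) to Polr1b (0.42) and Wdr12 (0.67).

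The 15 regulators of TOP mRNAs and ribosome synthesis had 0.21, with 3 below 0 (36.6% of all genes), from Eif4ebp1 and Gabpa (-0.10) to Rps6kb1 (0.34) and Rps6kb2 (0.42). Larp1 was at 271 and 322 CPM (0.25), Mtor at 68.1 and 78.7 CPM (0.21) and Myc at 41.8 and 42.9 CPM (0.04, -0.07 to 0.15). The 16 small nucleolar RNA host genes measured had -0.13, with 10 below 0 (36.6% of all genes), from Snhg12 (-0.55) and Gas5 (-0.46) to Snhg17 (0.42) and Snhg9 (1.17). Among 4 RNAs kept in the nucleus, Malat1 was lower (17800 and 13600 CPM, -0.38), and Neat1 (0.43), Kcnq1ot1 (0.84) and Meg3 (2.38) were higher. The amount of cytoplasmic RNA left on the nuclei was not measured, and its part in the ribosomal protein ratios was not tested.

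In myeloid nuclei the medians of these lists were -0.42 (ribosome genes outside the rule), -0.24 (abundant cytoplasmic mRNAs), -0.16 (oxidative phosphorylation), -0.26 (mitochondrial ribosomal proteins), 0.02 (translation factors), 0.05 (ribosome biogenesis), 0.21 (regulators), -0.37 (6 small nucleolar RNA hosts) and -0.10 (3 RNAs kept in the nucleus, with Neat1 at -0.10). Of these RNAs only Malat1 and Kcnq1ot1 were measured in NK and T nuclei, with medians of -0.08 and 0.00. Malat1 was at -0.25 in NK and -0.63 in T nuclei, and Kcnq1ot1 at 0.08 and 0.62. The same 2 genes were at -0.38 and 0.84 in tumour nuclei, where the median of 0.64 also covers Neat1 and Meg3. In NK and T nuclei the ribosome genes outside the rule had -0.83 and -0.29, with 6 of 7 below 0 in each (39.7% and 44.0% of all genes). The abundant cytoplasmic mRNAs had -0.73 and -0.15.

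Accessible chromatin at the start sites of the same genes was about equal in both libraries. Peaks within 1000 bp of a listed start, or of both gene ends for the 20 genes with no listed start, were summed per gene, and 75 members were compared in tumour nuclei. Of the other 4, Rpl7 had a peak in Sun1_KO (6100 counts) but none in Sun1_WT, and Rpl10l, Rpl3l and Rpl17 had none in the window in either table used here. The median log2 ratio of the 75 members compared was -0.01 with 593208 and 447961 counts, equal within rounding to the median of all 14833 genes (0.00). 1 member was at least 1.5-fold lower, against 1.97% of genes, and 0 were 1.5-fold higher, against 6.59%. Peaks were called per library and covered 71.1 kb in Sun1_WT and 71.8 kb in Sun1_KO at these genes, and per kilobase the summed ratio was -0.04. Of the members compared, 22 had an accessibility interval below 0 and 9 one above 0. The share of all genes with such intervals was not computed, so these counts are not read as a trait of the members. Of the 6 described above as lowest in RNA, the intervals of 3 held 0. Rpl10 had 38.8 and 39.1 CPM of accessibility (0.01, -0.04 to 0.06), Rpl15 48.0 and 46.8 (-0.04, -0.08 to 0.01) and Rps3 33.5 and 33.4 (0.00, -0.06 to 0.05). The other 3 lay below 0, Rps7 at 24.1 and 22.6 CPM (-0.09, -0.16 to -0.03), Rps18 at 51.9 and 50.3 CPM (-0.05, -0.09 to -0.00) and Rpl39 as given in the next paragraph. Rpl38, with the highest RNA ratio, had 25.7 and 24.9 CPM (-0.05, -0.11 to 0.02). Accessibility values are mostly even numbers (75.5% and 75% of recorded values), so single counts are not independent and these intervals are too narrow.

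The members at both ends of the accessibility range were set beside the other genes within 1 Mb. Rpl39 (chromosome X, 37082518 to 37085222) was the 1 lower member, at 24.6 and 12.8 CPM (4743 and 1897 counts, -0.94, -1.02 to -0.86). Of 20 other genes within 1 Mb of it, 18 were below 0 in accessibility (median -0.71), and 13 of 14 were below 0 in RNA (median -0.95). In myeloid nuclei the Rpl39 start stood at 31.6 and 26.5 CPM (-0.25, -0.51 to 0.01), and its RNA at 1130 and 731 CPM (-0.62, -0.73 to -0.52). Rpl3 (chromosome 15, 80077781 to 80083406) was next, at 59.3 and 44.8 CPM (-0.41), with 34 of 37 neighbours below 0 in accessibility (median -0.42) but an RNA median of -0.07 over 34 neighbours. Rpl39l followed, at 20.1 and 17.5 CPM (-0.20), beside a neighbour median of -0.02.

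At the high end in tumour nuclei stood Rps27 at 33.1 and 39.4 CPM (0.25, 0.20 to 0.30), Rpl34 at 49.8 and 54.3 CPM (0.12) and Rps12 at 33.6 and 35.9 CPM (0.10). Their neighbours within 1 Mb had accessibility medians of 0.15 (53 genes), 0.22 (13 genes) and 0.27 (6 genes). Of the other X-linked members, Rpl10 is given above. Rps4x stood at 18.1 and 16.6 CPM (-0.13, -0.20 to -0.06) and Rpl36a at 20.9 and 19.7 CPM (-0.08, -0.15 to -0.01). Both intervals lay below 0, and the neighbour medians in accessibility were 0.00 and 0.03. In RNA the 4 X-linked members had a median of -1.20 in tumour nuclei against -0.73 for the 73 others. These 4 were Rpl10 and Rpl39 above, Rps4x (1870 and 955 CPM, -0.97) and Rpl36a (1230 and 723 CPM, -0.77). The 366 other X-linked genes compared had an RNA median of 0.08, with 168 below 0. Neighbours of Rpl10, Rps4x and Rpl36a had RNA medians of 0.08, 0.33 and 0.26. The X-linked members had -0.65 in myeloid, -0.74 in NK and -0.40 in T nuclei. The remaining members had -0.48, -0.61 and -0.35 there. The number of copies of these stretches in the cells was not measured.

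In myeloid nuclei the 74 members compared had a median accessibility ratio of -0.07, the same as all 12187 genes, and 0 were past 1.5-fold in either direction, against 1.92% lower and 1.28% higher. In NK nuclei the median was 0.18 against 0.12 over all genes, and in T nuclei -0.02 against -0.02.

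**Figure D5:**
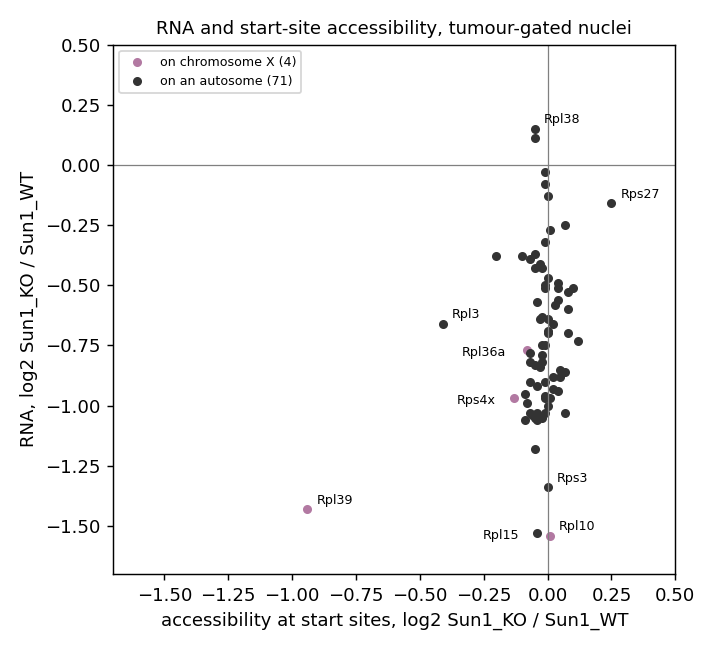
RNA log2 ratio (y axis) against start-site accessibility log2 ratio (x axis), both Sun1_KO over Sun1_WT in tumour-gated nuclei, for the 75 members measured in both, with the 4 on chromosome X in purple. The points form a column near 0 on the accessibility axis while RNA runs from -1.54 to 0.15, and Rpl39 (-0.94) and Rpl3 (-0.41) lie apart to the left.

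The authors' deposited table, made with the DESeq2 Wald test from these same libraries on nuclei that are not specified, lists 77 of the 79 members, without Rpl10l and Rpl3l. Which way its fold changes run is not stated, and they are taken here as Sun1_KO over Sun1_WT. In the authors' deposited table, at an adjusted p under 0.05, the members lower in Sun1_KO number 60 and those higher 11, where 4.12% of its 10156 genes are lower and 84.9% higher. The median log2 fold change in the authors' deposited table is -0.35 for the members and 0.59 for all genes. Its lowest member is Rpl10 at -1.20 (SE 0.0364, DESeq2 adjusted p 5.27e-234) and its highest is Rpl38 at 0.65 (SE 0.029, DESeq2 adjusted p 3.09e-108) in the authors' deposited table. With 1 library a genotype those p-values do not measure the spread between tumours.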

How the data were processed

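The 79 genes and all lists were chosen with earlier results of these data known. The authors deposited UMI counts per gene and nucleus and peak counts per nucleus. The submitters' processing notes give mm10 and the tools Cell Ranger, Cell Ranger ARC, Signac, Seurat and FastQC, with no versions. Peaks differ between the libraries as deposited. Per the file headers, the authors' table holds a mean normalized signal, log2 fold changes, a Wald statistic (a score, not used), and p-values from DESeq2. Kept were nuclei of at least 500 UMIs, 300 genes and no more than 20% mitochondrial UMIs (3345 Sun1_WT, 2172 Sun1_KO).

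Gates per 10000 UMIs were: tumour, 5 and 3 UMIs; myeloid, 15 and 3 markers; NK, 5, 2 markers and more NK than T UMIs; T, 5, 3 markers and more T than NK UMIs. Their thresholds were set after the marker distributions were seen. Nuclei past more than 1 gate (88 and 91) were left out, and no doublet caller was run. Counts were summed per gate and library and scaled to the non-mitochondrial total; log2 ratios used a pseudocount of 0.5 and genes with at least 100 UMIs over both libraries. Named were the 6 lowest and 6 highest members in tumour, 3 and 3 in myeloid, 2 and 2 in NK and T nuclei, members with set roles, the 3 lowest and 3 highest in accessibility, and the 2 lowest and 2 highest of each list in tumour nuclei; a gene that this rule names is not reported here. Genes within 1 Mb of a member (between midpoints) were looked at after seeing the data. The ratio script was tested on simulated counts. Python 3.11.15, numpy 2.4.6, pandas 2.3.3, scipy 1.17.1 and matplotlib 3.10.9 were used, and edgeR 4.0.16 in R 4.3.3 gave TMM factors only.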

Additional observations from a re-analysis of the deposited data

Results flagged for a closer look

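Rps27 had counting intervals on opposite sides of 0 in 2 gates. Its log2 ratio was -0.16 (-0.18 to -0.14) in tumour nuclei and 0.27 (0.02 to 0.53) in NK nuclei, with 302 and 233 UMIs in NK. The difference between the gates was not tested, and the median of all genes was 0.16 and 0.13 in these gates.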

How the results depend on the processing

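No paired analysis was possible because each genotype has 1 library of each kind. The tumour median of -0.75 was -0.91 under either TMM or median-ratio factors, -0.82 with mitochondrial genes in the total, -0.83 with ribosomal protein genes out of the total, -0.77 after thinning to 1000 UMIs, -0.73 with a looser gate, -0.82 in nuclei with 5 to 10% mitochondrial UMIs and -0.94 above 10%. In nuclei with at most 5% mitochondrial UMIs it reversed to 0.25, with 0 members at least 1.5-fold lower in place of 51 (12.2% of all genes), and with equal weight per nucleus it was -0.30, with 14 members (13.6%). The values of single members that follow are for the summed UMIs of these nuclei, not for equal weight. Listed are only described members that were below 0 over all tumour nuclei and above 0 here. Members that stayed below 0 are left out, so not all of the lowest members appear. In these summed UMIs 12 of 77 members were below 0 (57.2% of all genes). Rpl10 was at 0.01, Rpl11 0.02, Rps19 0.03, Rplp1 0.12, Rpl3 0.15, Rpl36a 0.20, Rps7 0.23, Rps6 0.29, Rplp0 0.41, Rps27a 0.41, Rpl13a 0.51, Rplp2 0.65, Rps28 0.79, Rps27l 0.89, Rpl41 0.90, Rps27 0.90, Rpl39l 1.01 and Rpl35 1.56. TMM and median-ratio scaling moved the median of all tumour genes from 0.16 to 0.00 and put Rpl38 at -0.01. Rpl38 was also at -0.10 in tumour nuclei above 10% mitochondrial UMIs and at -0.64 in NK nuclei above 10%, where Sun1_WT had 1 nucleus. Rps28 in tumour nuclei was at 0.03 after thinning and 0.02 without the 5% deepest nuclei. The myeloid median of -0.49 was -0.73 with at most 5% (55 members lower in place of 30, 8.91% of genes) and -0.32 above 10% (15 members, 7.99%). The NK median of -0.61 was -0.93 at 5 to 10% and -0.96 above 10%, over 17 members and 1 Sun1_WT nucleus. The T median of -0.35 was -0.81 with at most 5%, -0.58 at 5 to 10% and -0.20 above 10%, where Sun1_WT had 1 nucleus and all genes had -0.22. After thinning it was -0.43 beside -0.20 over all genes, a gap of -0.22 in place of -0.42. The tumour accessibility median of -0.01 was -0.13 on binarised counts, beside -0.11 over all genes. The cause of these shifts was not tested. Of 118 alternative values of the medians and of the counts of lower members, 98 kept their direction within the counting interval or within 1.5 times the count. Depth limits NK and T nuclei most, where 74 members had enough UMIs.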

Other observations

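The gene models that overlap ribosomal RNA sequence, looked at after their values were seen, ran opposite to the ribosomal protein genes. Gm42418 stood at 6510 CPM in Sun1_WT and 15800 in Sun1_KO tumour nuclei, a log2 ratio of 1.28 (1.27 to 1.29), and its ratio was 1.06 in myeloid, 0.93 in NK and 1.16 in T nuclei. AY036118 stood at 1860 and 2550 CPM in tumour nuclei (0.46, 0.44 to 0.47), and at 0.38, 0.21 and 0.29 in the other gates. Lars2, the mitochondrial leucyl-tRNA synthetase, stood at 211 and 563 CPM (1.42, 1.38 to 1.46) in tumour nuclei. With Gm42418 left out of the total the tumour median over ribosomal protein genes was -0.74.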
